A study of Mus musculus with 3 samples.

Results

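The genes described here encode the TGF-beta superfamily signalling system of the stroma of mouse tumours: its secreted ligands, the proteins that hold or block them, their receptors, and the SMAD proteins that carry the signal to the nucleus. Members were all array probe sets whose annotation gave exactly 1 gene symbol and whose symbol was that of a TGF-beta, BMP, GDF, activin or inhibin ligand, of a receptor for them, of a SMAD, of a latent TGF-beta binding protein, or of the antagonists Grem1, Nog, Chrd, Fst, Fstl1 and Fstl3. The symbols were matched by name and not by measured value. This gave 58 probe sets for 57 genes, out of 22087 genes named on the array. Only Gdf5 had 2 probe sets, and the brighter one on average was used. Gdf15 was not analysed here.

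Gene expression was measured in 3 samples that form a single group, stroma of tumours with the genotype Dicer1 +/-. Read plainly, this label means 1 functional copy of the microRNA-processing enzyme gene Dicer1. The number of functional copies in the sorted cells was not tested. Tumours were dissociated with collagenase and dispase, and live cells negative for PECAM1, an endothelial surface protein, and for the red fluorescent protein tdTomato were sorted, so that all 3 samples share genotype, gate and dissociation. The labels do not give the age or strain of the animals, the driver of tdTomato, or whether the samples came from separate animals, and any tumour cell without tdTomato would also fall in this gate. The title of the series sets +/+ against +/- tumours, but +/+ stroma was not analysed here, so no effect of genotype can be read from these values, and differences described are between samples 1, 2 and 3 of the same group. Each sample was measured on 1 array, no difference between samples has an error of its own, and no test between them was possible.

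TGF-beta is secreted bound to its own propeptide, and latent TGF-beta binding proteins anchor this inactive complex in the extracellular matrix until integrins or proteases release it. Active ligands bring together a type II and a type I receptor kinase, and the type I receptor phosphorylates receptor-regulated SMADs: Smad2 and Smad3 downstream of TGF-beta and activin receptors, Smad1, Smad5 and Smad9 downstream of BMP receptors. These join Smad4 and enter the nucleus, while Smad6 and Smad7 inhibit the pathway. In connective tissue TGF-beta is known for inducing matrix production and contractile genes in fibroblasts, and BMPs for guiding cartilage, bone and vessel formation.

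Values are log2 intensities as deposited, so a difference of 1 is a doubling. Array medians lay between 5.34 and 5.36. A gene was called detected on an array when its value lay above the 95th percentile of the olfactory, vomeronasal and taste receptor probe sets, which stood at 5.16, 5.11 and 5.20. Sample 1 stood apart in Xist, at 9.78 against 3.43 and 3.49, and in the Y-linked Eif2s3y, at 3.86 against 8.51 and 8.71. These are values of female cells in sample 1 and of male cells in samples 2 and 3. Sample 1 therefore came from another animal than samples 2 and 3. Its differences from them cannot be told apart from a difference of sex. Dicer1 itself was at 8.10, 8.10 and 8.08. Probes differ in brightness, so levels were compared between samples for 1 gene and never between genes.

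Markers of the cell types that this gate could hold differed between the samples. All 15 fibroblast markers were detected on the 3 arrays, among them Pdgfra at 8.55, 9.24 and 7.82 and Dcn at 11.64, 12.02 and 11.20 in samples 1 to 3. The median over the list of the difference from each gene's mean was 0.08, 0.41 and -0.52 for fibroblast markers, whose summed log2 values were 148, 154 and 138. Pericyte and smooth muscle markers, with 11 of 11 detected, had medians of -0.08, 0.62 and -0.54. In the other direction, all 11 neutrophil markers were detected with medians of -0.45, -0.01 and 0.39, and the cartilage and bone markers, 9 of 10 detected on every array, had medians of -0.58, 0.03 and 0.71. Of 13 endothelial markers, which the gate was meant to leave out, 8 were detected on every array, with medians of -0.18, -0.18 and 0.42. Pecam1 itself, the target of the gate, was above background throughout, at 8.02, 7.20 and 8.25 and lowest in sample 2, and Cdh5 was at 6.17, 6.75 and 7.81. T cell markers (8 of 8 detected) and B cell and plasma cell markers (5 of 8 on every array) were highest in sample 1, with medians of 0.93 and 1.13 there. Macrophage markers (12 of 12) had medians of 0.17, 0.20 and -0.38, those of dendritic cells and class II (7 of 7) 0.01, -0.42 and 0.49, and those of mast cells and basophils (6 of 8) -0.08, 0.28 and -0.33. Myogenic markers (8 of 12) had medians of -0.11, -0.17 and 0.21, with Myf6 and Pax3 below background in every sample. Glial markers (4 of 5), epithelial and gland markers (3 of 7) and platelet markers (3 of 4) had medians that spanned 0.24, 0.13 and 0.20. Single genes of the last 2 lists differed far more than these medians. The gland genes Lipf, encoding gastric lipase, at 3.11, 9.24 and 3.42, and Bpifb1, at 3.92, 9.36 and 4.91, were above background in sample 2 alone, so sample 2, in which most members below were highest, stood apart in them. The epithelial cadherin gene Cdh1 was lowest there, at 7.16, 6.47 and 8.13, and the platelet gene Pf4 was at 9.31, 9.38 and 8.06. In RNA from sorted mixtures, fewer cells of a type and less RNA per cell cannot be told apart, and the part of cell makeup in the differences below was not tested.

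Most of the system was detected in this stroma. Of the 57 members, 42 (73.7%) were detected on all 3 arrays, beside 60.5% of 20658 named genes outside the receptor reference and 66.9% of named protein-coding genes. Another 5 were detected on 1 or 2 arrays: Gdf6 and Gdf7 on 1, and Gdf5, Inhbb and Smad9 on 2. This makes 47 members (82.5%) detected on at least 1 array, beside 66.0% of the named genes and 71.9% of the protein-coding ones. The remaining 10 were never above background: Bmp8b, Bmp10, Bmp15, Gdf2, Gdf3, Inhbc, Inhbe, Acvr1c, Acvr2b and Bmpr1b. A probe set at background does not show that the transcript was absent.

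Members more often had their highest value in sample 2 than in the other samples. Of the 47 members detected on at least 1 array, 30 (63.8%) were highest in sample 2, beside 32.5% of all 13636 genes so detected and 33.2% of the protein-coding ones. Only 7 were highest in sample 1 (background 28.8%) and 8 in sample 3 (background 32.8%), and Bmp8a and Inha had tied highest values. The lowest value lay in sample 3 for 21 members (background 33.3%), in sample 1 for 19 (background 31.2%) and in sample 2 for 7 (background 29.4%). In pairs of samples, chosen after seeing the data, 35 of 47 members were higher in sample 2 than in sample 3 (background 47.8%). Likewise 35 were higher in sample 2 than in sample 1 (background 50.7%), while 23 were higher in sample 1 than in sample 3 (background 48.5%). The 30 members highest in sample 2 are by definition within both counts of 35, so these are not separate results. The median over members of the deviation from the gene mean was -0.05, 0.21 and -0.09 in samples 1 to 3, and over all genes -0.0070, 0 and -0.00062.

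**Figure D1:**
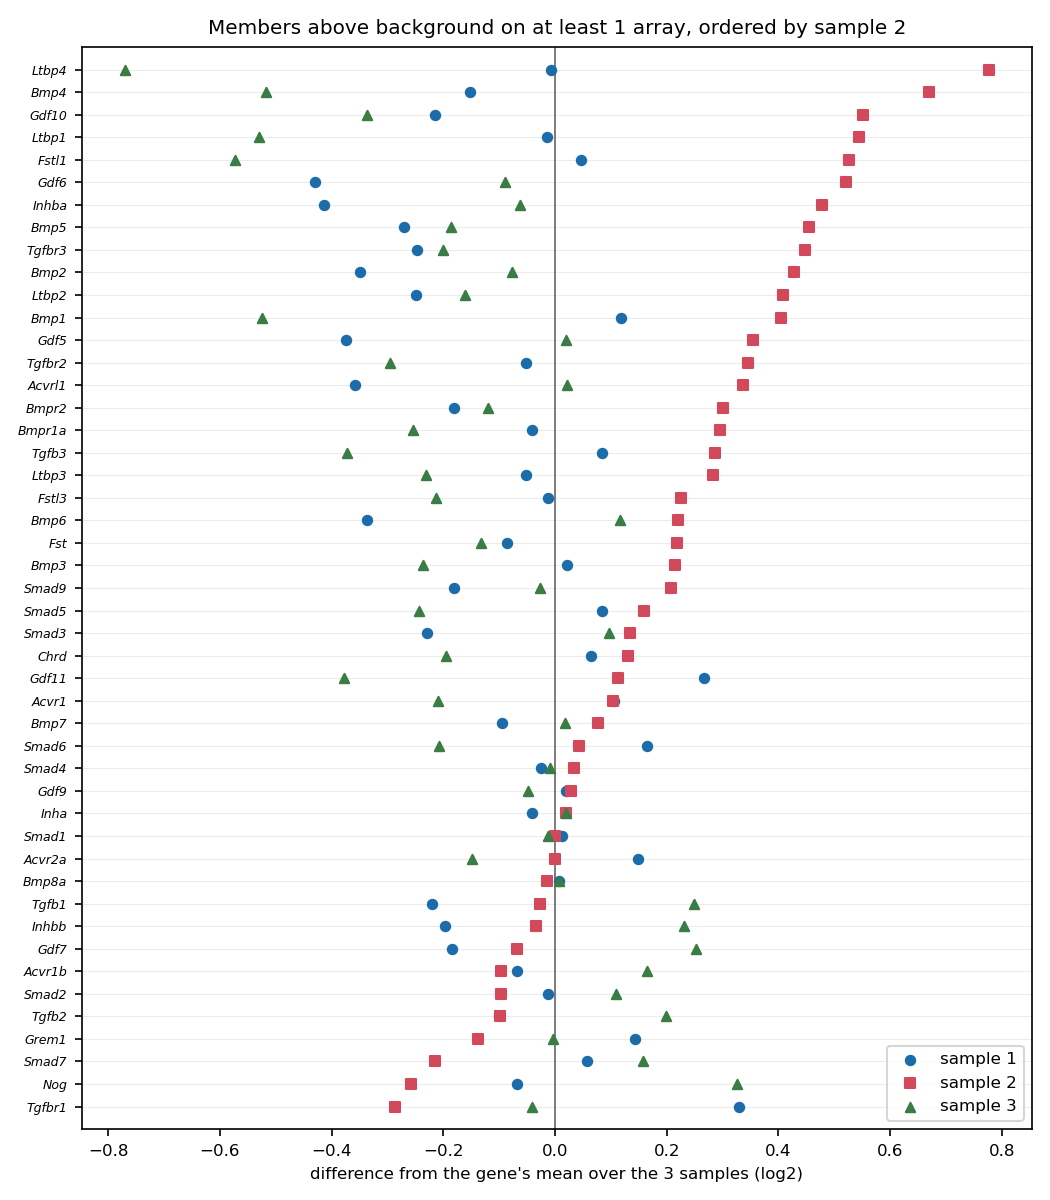
Each row is 1 of the 47 members detected on at least 1 array, and the points give the difference of samples 1, 2 and 3 from that gene's mean (log2, horizontal axis), ordered by sample 2. Sample 2 is the highest point in 30 rows, from Ltbp4 at the top, while Tgfbr1, Nog, Smad7 and Grem1 at the bottom are lowest in sample 2.

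The range over the 3 samples, highest minus lowest, had a median of 0.47 among these 47 members and of 0.31 among all genes detected on at least 1 array. It exceeded 1, a 2-fold span, for 4 members (8.51%), beside 5.70% of all genes and 5.43% of protein-coding genes. A range above 0.5 was found for 22 members (background 26.8%). Of these 22, 19 were highest in sample 2 (background for both criteria 10.4%), and Tgfbr1, Gdf11 and Nog were the other 3. The 4 members with the widest spans were Ltbp4, Bmp4, Fstl1 and Ltbp1, and each was highest in sample 2 and lowest in sample 3. Of all genes detected on at least 1 array, 18.0% had that order of samples, whatever their range. A range above 1 with the highest value in sample 2 was found for 2.37% of them. Without sample 2 or without sample 3 none of the members had a range above 1 (background 2.79% and 1.85%). Without sample 1 all 4 kept it (background 3.49%). That was fixed in advance, because sample 1 held neither the highest nor the lowest value of these 4 genes.

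The promoters of these 4 genes are shown because their spans were the widest, and whether the genes are regulated together was not tested. Those of Tgfb1 and Tgfbr1 follow, central members with other orders of the samples. Each line gives the 250 bases before a transcription start listed by RefSeq on GRCm38.p6, read 5′ to 3′ on the gene's strand, and the first start listed was taken where there were several (3 for Ltbp4, 2 for Ltbp1 and Tgfbr1). Capitals mark matches on either strand to CAGAC, the core of a SMAD-binding element, to GGCGCC, a motif bound by BMP-regulated SMADs, and to GGGCGG, the GC box bound by SP1, and overlapping matches run together.
Ltbp4 (chr7:27337613-27337862, minus strand): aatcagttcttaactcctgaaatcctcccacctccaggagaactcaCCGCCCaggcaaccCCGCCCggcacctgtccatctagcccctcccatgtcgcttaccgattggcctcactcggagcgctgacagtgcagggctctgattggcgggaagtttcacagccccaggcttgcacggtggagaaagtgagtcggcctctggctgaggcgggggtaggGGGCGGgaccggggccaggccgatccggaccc
Bmp4 (chr14:46390670-46390919, minus strand): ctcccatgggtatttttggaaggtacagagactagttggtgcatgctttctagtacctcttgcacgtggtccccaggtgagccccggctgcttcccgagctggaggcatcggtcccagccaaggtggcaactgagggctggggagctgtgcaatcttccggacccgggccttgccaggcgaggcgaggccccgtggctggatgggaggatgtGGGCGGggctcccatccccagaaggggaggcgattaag
Fstl1 (chr16:37776805-37777054, plus strand): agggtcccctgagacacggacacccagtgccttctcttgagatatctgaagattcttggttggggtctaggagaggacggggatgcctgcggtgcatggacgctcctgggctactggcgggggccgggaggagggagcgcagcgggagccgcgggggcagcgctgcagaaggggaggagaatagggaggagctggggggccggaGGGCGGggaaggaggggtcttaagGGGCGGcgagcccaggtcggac
Ltbp1 (chr17:75005279-75005528, plus strand): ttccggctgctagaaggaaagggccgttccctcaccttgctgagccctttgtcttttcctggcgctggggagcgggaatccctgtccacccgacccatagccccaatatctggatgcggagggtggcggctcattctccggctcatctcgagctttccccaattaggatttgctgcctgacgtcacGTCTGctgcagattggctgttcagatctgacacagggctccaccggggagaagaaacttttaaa
Tgfb1 (chr7:25686752-25687001, plus strand): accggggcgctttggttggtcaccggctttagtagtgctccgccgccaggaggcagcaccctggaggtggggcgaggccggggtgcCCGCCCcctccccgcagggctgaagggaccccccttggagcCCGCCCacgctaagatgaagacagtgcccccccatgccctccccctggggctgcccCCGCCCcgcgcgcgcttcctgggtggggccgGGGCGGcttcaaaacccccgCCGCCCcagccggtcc
Tgfbr1 (chr4:47352972-47353221, plus strand): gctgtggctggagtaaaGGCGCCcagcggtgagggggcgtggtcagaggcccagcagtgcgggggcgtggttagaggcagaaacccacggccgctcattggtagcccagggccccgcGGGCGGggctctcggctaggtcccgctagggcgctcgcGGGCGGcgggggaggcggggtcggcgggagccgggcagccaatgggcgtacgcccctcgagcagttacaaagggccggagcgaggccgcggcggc

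Of the SMAD-type letters, CAGAC occurred once among the 4 genes with the widest spans, in Ltbp1, and GGCGCC only in Tgfbr1. So few windows cannot be set against the shares of all genes given below. GC boxes numbered 3 in Ltbp4, 2 in Fstl1, 1 in Bmp4 and 0 in Ltbp1, against 5 in Tgfb1 and 2 in Tgfbr1. A match here is a run of letters and does not show that a factor binds, and a window without one says only that these letters are not in it. Across the 41 members with a listed window, 18 (43.9%) held CAGAC, 6 (14.6%) GGCGCC and 28 (68.3%) GGGCGG, beside 42.1%, 9.54% and 32.9% of all 27025 genes with a window. Among named genes detected on at least 1 array the shares were 41.1%, 16.0% and 56.7%, and among the 32 matched members so detected they were 40.6%, 18.8% and 78.1%. The windows of those 32 members had a median GC content of 67.4%, beside 59.2% for detected genes in general, and the 9 matched members never above background had 52.0%, beside 50.4% for all named genes never above background.

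The 3 TGF-beta ligands were detected in every sample, and they did not share an order of the samples. Tgfb1, the isoform best known from immune and stromal cells, was at 9.40, 9.60 and 9.87 in samples 1 to 3 (mean 9.62 ± 0.24, SD, n = 3). It was thus highest in sample 3, where Ltbp1, Ltbp3 and Ltbp4 were lowest. The medians of the cartilage and bone, dendritic cell, endothelial, neutrophil and myogenic markers were also highest in that sample. Tgfb2 was at 7.50 and 7.51 in samples 1 and 2 and at 7.80 in sample 3 (mean 7.60 ± 0.17, SD, n = 3), again highest in sample 3. Tgfb3, an isoform of mesenchymal tissue and palate development, was at 9.41, 9.61 and 8.95 (mean 9.32 ± 0.34, SD, n = 3). It was lowest in sample 3, so Tgfb1 and Tgfb3 differed in opposite directions between samples 2 and 3. The Tgfb1 span was 1.38-fold, and its range of 0.47 was also the median range over the members.

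Latent TGF-beta binding proteins had the highest median range, 0.87, among the roles with more than 1 gene. All 4 were highest in sample 2 (background 32.5%). Ltbp4, which also organises elastic fibres, was at 9.14, 9.92 and 8.38 (mean 9.15 ± 0.77, SD, n = 3), a 2.92-fold span and the widest of all members. Ltbp1, the general carrier of latent TGF-beta in the matrix, was at 7.84, 8.40 and 7.33 (mean 7.86 ± 0.54, SD, n = 3). In both genes sample 1 lay midway between the others. Ltbp3 was at 8.20, 8.54 and 8.03, the same order in a narrower span of 1.43-fold. Ltbp2, which binds fibrillin but not latent TGF-beta, was at 8.97, 9.63 and 9.06, with samples 1 and 3 close together and sample 2 apart. The span of Ltbp4 was 0.78 without sample 3 and 0.76 without sample 2, from 1.55. Its order of samples was that of the medians of 4 marker lists given above: fibroblast, pericyte and smooth muscle, macrophage, and mast cell and basophil.

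The TGF-beta receptors divided between samples 1 and 2. Tgfbr1, the type I receptor kinase, was highest in sample 1 and lowest in sample 2, at 8.54, 7.92 and 8.17 (mean 8.21 ± 0.31, SD, n = 3). Tgfbr2, the type II receptor that binds the ligand first, was at 8.70, 9.09 and 8.45 (mean 8.75 ± 0.32, SD, n = 3). The sample with the lowest Tgfbr1 was therefore the one with the highest Tgfbr2. Tgfbr3, or betaglycan, a co-receptor that presents TGF-beta to the type II receptor, was at 8.12, 8.82 and 8.17 (mean 8.37 ± 0.39, SD, n = 3). It stood higher in sample 2 than in samples 1 and 3, which differed by 0.048. The T cell markers had the same order of samples as Tgfbr1, with medians of 0.93, -0.80 and 0.07. So did the B cell and plasma cell markers, with medians of 1.13, -0.61 and -0.36. The part of either cell type in the Tgfbr1 values was not tested.

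**Figure D2:**
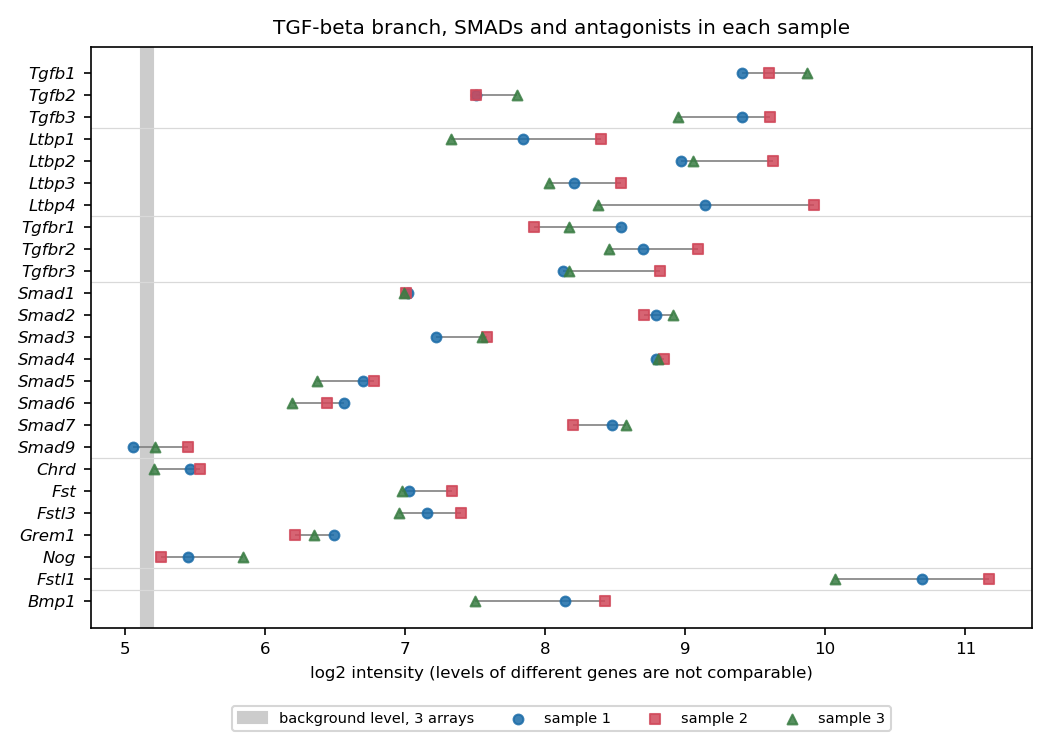
Log2 intensity (horizontal axis) of the TGF-beta ligands, their binding proteins and receptors, the SMADs, the antagonists, Fstl1 and Bmp1, with 1 point for each of samples 1 to 3 joined by a line over the range, and the grey band spans the background levels of the 3 arrays (5.11 to 5.20). Lines are long for Ltbp4, Ltbp1, Fstl1 and Bmp1 and short for Smad1 and Smad4.

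Among BMP ligands, 7 of 10 were detected on all 3 arrays (background 60.5%) and 6 of these 7 were highest in sample 2 (background 32.5%). Bmp4, a mesenchymal ligand that acts in bone, vessel and limb formation, was at 6.97, 7.79 and 6.60 (mean 7.12 ± 0.61, SD, n = 3), a 2.28-fold span with sample 2 apart from the others. Bmp5, of the subfamily of Bmp6 and Bmp7, was at 7.78, 8.50 and 7.86 (mean 8.05 ± 0.40, SD, n = 3). Here samples 1 and 3 differed by 0.085 while sample 2 was at least 0.64 higher. Bmp2, a strong inducer of bone formation, was at 5.52, 6.30 and 5.79 (mean 5.87 ± 0.39, SD, n = 3), with the lowest value in sample 1. Bmp6 had a similar order, at 6.45, 7.01 and 6.90, with samples 2 and 3 close together.

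The other BMPs had narrower ranges. Bmp3, which is known to antagonise osteogenic BMPs, was at 6.37 ± 0.23 and Bmp7 at 5.90 ± 0.087 (SD, n = 3 each). Bmp8a lay just above background, at 5.26, 5.24 and 5.26 with equal values in samples 1 and 3. Bmp8b, the heart ligand Bmp10 and the oocyte ligand Bmp15 were below background in all 3 samples. Cartilage and bone markers were highest in sample 3, and neither Bmp2 nor Bmp4 was: that sample held the lowest Bmp4 value.

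Bmp1 carries the family name but is a metalloproteinase that trims procollagen and also cleaves the antagonist chordin. It was at 8.14, 8.43 and 7.50 in samples 1 to 3 (mean 8.02 ± 0.48, SD, n = 3). Samples 1 and 2 were within 0.29 of each other and sample 3 stood lower, a span of 1.90-fold.

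Of the growth and differentiation factors, 3 of 8 were detected on all arrays (background 60.5%). Gdf10, also called BMP3b and expressed by subsets of fibroblasts, was at 8.05, 8.82 and 7.93 (mean 8.27 ± 0.48, SD, n = 3), with sample 2 at least 0.77 above the others. Gdf11, a close relative of myostatin, went otherwise, at 6.96, 6.81 and 6.32 (mean 6.69 ± 0.34, SD, n = 3). Its samples 1 and 2 were near each other and sample 3 was lower. Gdf9, an oocyte factor, lay at background, at 5.27 ± 0.042 (SD, n = 3).

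The joint-forming ligands Gdf5 and Gdf6 crossed the background level between samples. Gdf5 was at 4.96, 5.68 and 5.35, above background in samples 2 and 3, and Gdf6 at 4.48, 5.43 and 4.82, above it in sample 2 alone. The second probe set of Gdf5 was below background in all samples, at 3.39, 3.77 and 3.32, and also highest in sample 2. Gdf7 was above background in sample 3 alone, at 4.83, 4.94 and 5.26. Ranges that include values at background are not exact sizes. Gdf2, or BMP9, a ligand made by the liver, and Gdf3 were not detected.

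Activins are dimers of the beta subunits encoded by Inhba and Inhbb, and pairing with the alpha subunit from Inha gives inhibin. Inhba was at 5.36, 6.25 and 5.71 (mean 5.77 ± 0.45, SD, n = 3), highest in sample 2 and 0.89 lower in sample 1. Inhbb was at 5.04, 5.20 and 5.47, below background in sample 1 and highest in sample 3. The subunits of activin A and activin B thus reached their highest values in different samples, though Inhbb lay close to background throughout and Inhba did in sample 1. Inha was at 5.76, 5.82 and 5.82 with a tie between samples 2 and 3, and the liver subunits Inhbc and Inhbe were below background.

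Receptors for BMPs and activins were detected on all 3 arrays in 6 of 9 cases (background 60.5%). Bmpr2, the BMP type II receptor, was at 9.46, 9.94 and 9.52 (mean 9.64 ± 0.26, SD, n = 3), and Bmpr1a, a type I receptor for BMP2 and BMP4, at 7.64, 7.98 and 7.43 (mean 7.68 ± 0.28, SD, n = 3). Both were highest in sample 2, by at least 0.42 and 0.34, though a further probe set that Bmpr2 shares with Gm20272 was lowest in sample 3 and not in sample 1. The alternative type I receptor Bmpr1b was below background throughout, at 3.81, 4.52 and 3.66. Acvrl1, or ALK1, a receptor of endothelial cells, was at 6.58, 7.27 and 6.96 (mean 6.94 ± 0.35, SD, n = 3). It was highest in sample 2 and lowest in sample 1. Of the 13 endothelial markers, 11 were highest in sample 3, and the other 2, Tek (at 5.31, 5.93 and 5.75) and Esam (at 5.34, 5.61 and 5.38), had the order of Acvrl1.

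The activin receptors showed narrower ranges. Acvr1, or ALK2, was at 7.26, 7.25 and 6.94 (mean 7.15 ± 0.18, SD, n = 3), lower in sample 3. Acvr1b, the main activin type I receptor, stood at 6.68 ± 0.14 and Acvr2a, a type II receptor, at 7.79 ± 0.15 (SD, n = 3 each). Acvr2b and Acvr1c, which serves Nodal and some GDFs, were below background in every sample, Acvr2b at 4.89, 4.89 and 4.92.

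**Figure D3:**
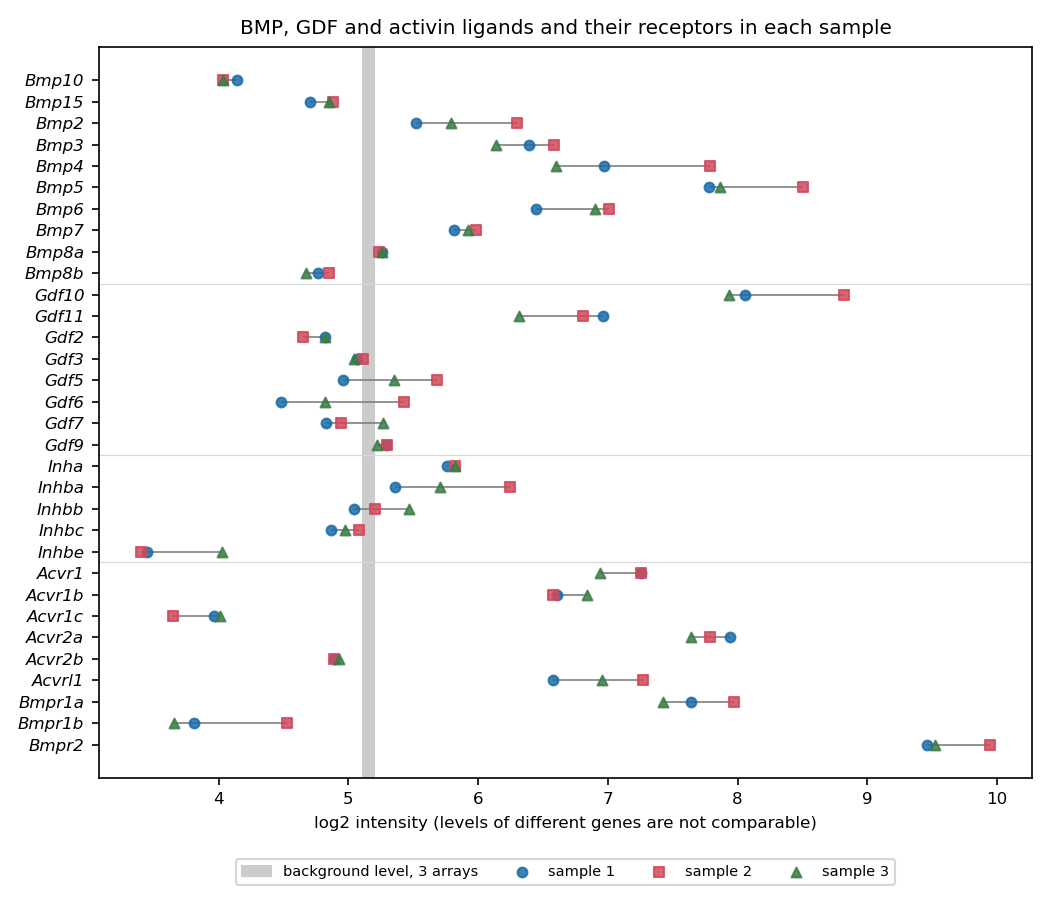
Log2 intensity (horizontal axis) of the BMP, GDF and activin or inhibin ligand genes and of their receptors, with 1 point for each of samples 1 to 3 joined by a line over the range, and the grey band spans the background levels of the 3 arrays. Bmp4, Bmp5, Gdf10 and Inhba have their square, sample 2, to the right of the other points, and 10 of these genes lie wholly to the left of the band or within it.

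The ranges of the SMADs had a median of 0.37, beside 0.47 over the members and 0.31 over all genes detected on at least 1 array. The median was 0.35 for the secreted antagonists, 0.40 for the BMP and activin receptors, 0.56 for the BMP ligands and 0.87 for the latent TGF-beta binding proteins. All 8 SMADs were detected on at least 1 array (background 66.0%) and 7 on all 3 (background 60.5%). Their ranges ran from 0.025 to 0.40, so none reached 0.5. Smad4, the common partner, was at 8.79, 8.85 and 8.80 (mean 8.81 ± 0.030, SD, n = 3), and Smad1 at 7.02, 7.01 and 6.99 (mean 7.01 ± 0.013, SD, n = 3). These values were nearly equal across samples that differed in their fibroblast, lymphocyte and neutrophil markers.

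The SMADs of the TGF-beta and activin branch were Smad2, at 8.79, 8.71 and 8.91, and Smad3, at 7.22, 7.59 and 7.55. Smad2 was lowest in sample 2, where Smad3 was highest. In the BMP branch Smad5 was at 6.70, 6.78 and 6.37, lowest in sample 3. Smad9 lay at background, at 5.06, 5.45 and 5.21, and was below it in sample 1.

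The inhibitory SMADs are themselves induced by the pathway as feedback. Smad7, which blocks both branches, was at 8.48, 8.20 and 8.57 (mean 8.42 ± 0.19, SD, n = 3). Smad6, which acts mainly on BMP signalling, was at 6.56, 6.44 and 6.19 (mean 6.40 ± 0.19, SD, n = 3). Smad7 was lowest in sample 2, in which most ligand and binding protein genes were highest, and Smad6 was lowest in sample 3.

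All 5 secreted antagonists were detected on all 3 arrays (background 60.5%). Fst, encoding follistatin, which traps activins, was at 7.03, 7.33 and 6.98 (mean 7.11 ± 0.19, SD, n = 3), and its relative Fstl3 at 7.16, 7.40 and 6.96 (mean 7.17 ± 0.22, SD, n = 3). Both were highest in sample 2, as was their target Inhba. The BMP antagonists Grem1 and Nog did the reverse. Grem1 was at 6.50, 6.21 and 6.35 (mean 6.35 ± 0.14, SD, n = 3), and Nog, encoding noggin, at 5.45, 5.26 and 5.84 (mean 5.52 ± 0.30, SD, n = 3). Their lowest values were thus in sample 2, which had the highest Bmp2, Bmp4 and Bmp5. The BMP antagonist Chrd, at 5.47, 5.53 and 5.21, was instead highest in sample 2, and Nog and Chrd lay close to background. The range of Grem1, 0.28, was below the median of 0.31 over all genes detected on at least 1 array.

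Fstl1, a secreted glycoprotein of mesenchymal cells that shares the follistatin domain but whose action on BMPs differs from that of follistatin, was at 10.69, 11.17 and 10.07 (mean 10.64 ± 0.55, SD, n = 3). The span was 2.14-fold with sample 3 lowest. Its order, like that of Ltbp1, Ltbp4, Bmp1, Tgfb3 and Tgfbr2, was sample 2, then 1, then 3, which held for 16 of the 47 members beside 18.0% of all genes. Another 14 members shared the maximum but not the minimum, such as Bmp2, Bmp5, Inhba and Acvrl1, whose maximum was in sample 2 and whose minimum was in sample 1 (background 13.0%).

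**Figure D4:**
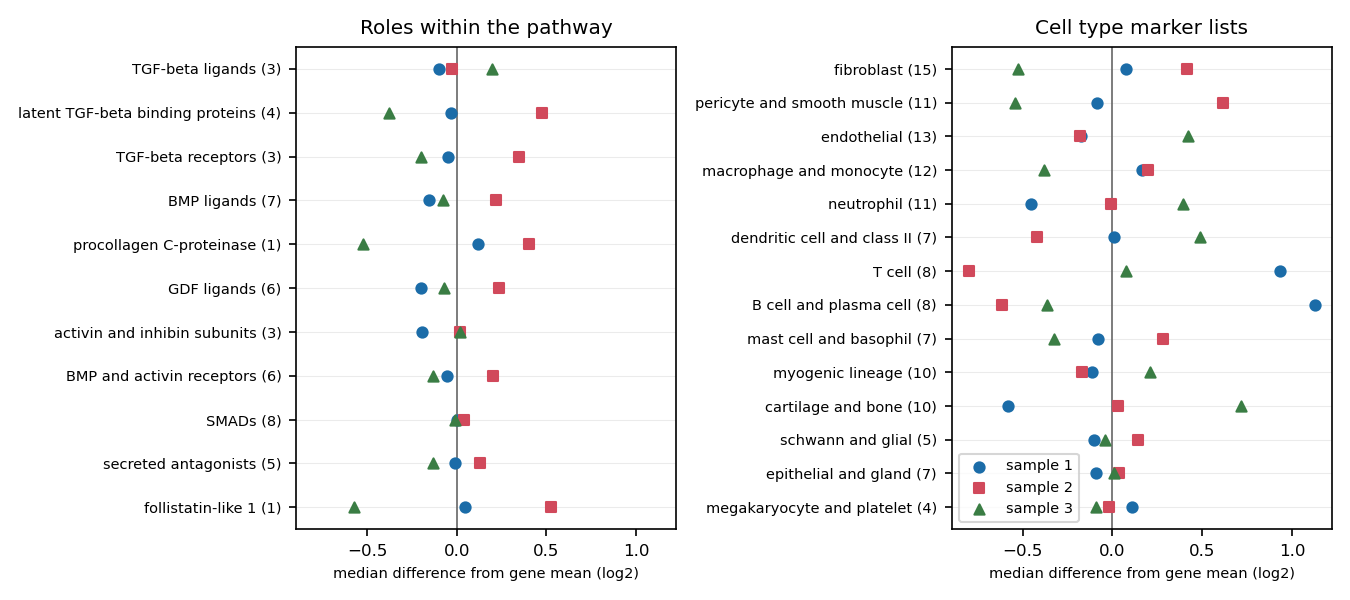
Median difference from the gene mean (log2, horizontal axis) in samples 1 to 3 for each role within the pathway (left) and for each cell type marker list (right), over genes detected on at least 1 array, whose number stands in brackets. Latent TGF-beta binding proteins run from -0.38 in sample 3 to 0.48 in sample 2, fibroblast markers from -0.52 to 0.41, and SMADs lie close to 0 in all samples.

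The 7 lists of further pathway genes were written with earlier results of these data known. Of their 107 genes, 100 were measured and 77 were detected on all 3 arrays (background 60.5%). A range above 1 was found for 13 of the 82 detected on at least 1 array, beside 5.70% of all genes. Of the 13, 11 were highest in sample 2 and 2 in sample 3. Of all 777 genes with such a range, 323 were highest in sample 2 and 255 in sample 3, which is 2.37% and 1.87% of the genes detected on at least 1 array. Several are smooth muscle or fibroblast genes, so the lists are not independent of the marker lists.

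Genes that hold or release latent TGF-beta went different ways. Lrrc32, encoding GARP, which holds latent TGF-beta on the cell surface, was at 6.17, 7.64 and 6.38 (mean 6.73 ± 0.80, SD, n = 3). Sample 2 stood apart, and samples 1 and 3 were close together. Nrros, its counterpart in myeloid cells and named here after its values were seen, was at 8.78, 8.47 and 9.24, lowest in sample 2 and highest in sample 3. Tgfb1 shared its highest sample but was lowest in sample 1. The proprotein convertase Pcsk5 was at 6.61, 7.07 and 6.03, in the order of Ltbp1.

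Of 14 other antagonists and modulators detected on at least 1 array, 11 were highest in sample 2 (background 32.5%). A range above 1 was found for 4 of them (background 5.70%). Dcn, in this list, is also a fibroblast marker. The BMP binder Chrdl1 was at 8.20, 8.69 and 7.28, Bmper at 6.82, 7.54 and 6.09, and Nbl1 at 7.71, 8.49 and 6.95. These 3 had their lowest values in sample 3, the opposite of Nog. Sostdc1, an antagonist of BMP and Wnt ligands, was at 6.55, 5.75 and 6.82, lowest in sample 2. Among other ligands of the superfamily 2 of 10 were detected on all 3 arrays (background 60.5%). Mstn, encoding myostatin, was above background in sample 2 alone, at 6.21 against 4.01 and 3.86.

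Genes known to respond to TGF-beta were all detected on the 3 arrays, 19 of 19 (background 60.5%). Of these, 14 were highest in sample 2 (background 32.5%), and the list medians were -0.04, 0.24 and -0.19. Ccn2 was at 10.36, 10.89 and 10.46 and Pmepa1, a feedback inhibitor, at 9.02, 9.46 and 8.77, whereas Tgfbi (10.62 ± 0.13) and the SMAD corepressor Skil (8.71 ± 0.067, SD, n = 3 each) varied less. The 4 with a range above 1 were the contractile genes Acta2, at 10.54, 11.18 and 10.03, and Tagln, at 9.19, 9.87 and 8.37, the collagen-binding integrin Itga11, at 7.51, 7.74 and 6.69, and Ldlrad4, an inhibitor of SMAD phosphorylation, at 8.39, 9.09 and 7.93. Acta2 and Tagln are also pericyte and smooth muscle markers, and Col1a1, another gene of this list, is also a fibroblast marker.

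Genes known to respond to BMPs had no common order. Of 13, 5 were highest in sample 2 (background 32.5%) and 6 in sample 3 (background 32.8%), with medians of -0.17, 0.03 and 0.08. Id1 was at 7.57, 7.90 and 8.24, highest in sample 3, and Id3 at 9.34, 9.55 and 9.07, lowest there. Id2 was at 9.13 ± 0.15 and Id4 at 6.38 ± 0.26 (SD, n = 3 each). Tmem100, a target of ALK1 signalling that was also listed with the co-receptors (5 of 8 detected), was at 6.92, 8.10 and 6.25, in the order of Bmp4. Hamp, the hepcidin gene, was above background in sample 3 alone, at 5.93 against 4.84 and 4.01. The 20 regulators of SMADs inside the cell that were detected on at least 1 array had list medians within 0.048 of each other, and Ldlrad4 alone among them had a range above 1.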

How the data were processed

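The deposited table holds a log2 intensity for each probe set on each array. The log2 scale was read from the values, which ran from 2.00 to 13.18. Partek is named in the submitters' processing notes, with no version or role. The sources used here do not give the background correction, normalization or probe summarization. GEO's platform annotation gave 1 symbol for 23094 of 31873 probe sets. The others were not used. A gene was represented by its probe set with the highest mean, and all 57 member identifiers matched the RefSeq table of GRCm38.p6.

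Detection used 1438 receptor probe sets as reference. The number of arrays limits the precision, SDs measure only the spread between these samples, which may be technical, and exact ties between arrays (4 members) can understate an SD. The counting was tested on simulated data with 200 changed genes. Python 3.11.15 with numpy 2.4.6, pandas 2.3.3 and matplotlib 3.10.9 was used.

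The members, the 14 marker lists and the 7 pathway lists were chosen with earlier results of these data known. Per-sample values are given for members with a range above 0.5 and for 23 core members, other members by mean and SD, and other genes by list position or a range above 1. Any other gene named was chosen after its values were seen. Alternatives were other background levels, normalizations, probe set choices, range sizes and filters, and leaving out each sample.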

Additional observations from a re-analysis of the deposited data

How the results depend on the processing

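The count of 42 members detected on all 3 arrays was 53 at the 90th percentile of the receptor reference and 28 at the 99th. The shares of all genes there were 72.0% and 38.1%. The member count stayed within 1.5 times of 42 under each alternative detection level, normalization and summary of probe sets and without each sample. The 30 members highest in sample 2 and the 21 lowest in sample 3 did so under the alternative detection levels, normalizations and summaries of probe sets and without a detection filter, and they were not counted without a sample. The 4 members with a range above 1 were the same genes under each detection level, both normalizations and both summaries of probe sets, and all 4 stayed highest in sample 2 and lowest in sample 3 there. That count went from 4 to 0 without sample 2 and to 0 without sample 3, so it lay between 0 and 4 when a sample was left out. It was 18 with a 1.5-fold and 0 with a 3-fold threshold, by construction of the threshold. The members lowest in sample 1 numbered 10, from 19, with the 99th percentile as detection level, where 34 members and not 47 were counted. The median range of members was 0.27 without sample 2 and 0.28 without sample 3, from 0.47, and that of all genes 0.20 and 0.17, from 0.31. The span of the list of SMAD regulators was 0.079, from 0.048, with the probe set of lowest mean, and the cause was not tested. No paired analysis was possible because the samples form 1 group. Signal over background limits the values of Bmp8a, Gdf5, Gdf6, Gdf7, Gdf9, Inhbb, Smad9, Chrd and Nog, which lie close to the background level. It also limits the value of Inhba in sample 1.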

Other observations

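Probe sets whose annotation joins a family gene with another gene were left out of the members, and 3 of them were above background in all samples. The one shared by Gdf1 and Cers1 was at 5.25, 5.75 and 5.90 in samples 1 to 3, lowest in sample 1 and not assignable to either gene. The one shared by Bmpr2 and Gm20272 was at 10.60, 10.65 and 10.07, lowest in sample 3, whereas the probe set of Bmpr2 alone had its lowest value in sample 1, at 9.46 against 9.94 and 9.52. The probe sets of Bmpr2 therefore differ on the order of samples 1 and 3, and each has its highest value in sample 2. The one shared by Ltbp2 and D030025P21Rik was at 5.48, 5.74 and 5.43, also highest in sample 2, as was Ltbp2 alone.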
